A study of Mus musculus with 8 samples.

Results

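CD8 T cells that lack PKCθ and had met the ovalbumin peptide N4 were set against wild-type (WT) CD8 T cells that had met no peptide, which asks how far the response to N4 was reached without this kinase. The comparison took the 2 arrays titled for PKC theta KO cells with N4 and the 2 titled for WT unstimulated cells, 4 of the 8 arrays of the series, and all probe sets with 1 autosomal gene symbol, 33584 of 45037 that were no controls. They gave 12080 genes measured above an intensity filter, with 1 probe set each. CD8 T cells came from spleens of mice on the C57BL/6 background and were positively selected on magnetic columns. They shared a culture with dendritic cells grown from bone marrow, 10 T cells to each, for 18 h, after which CD11c-positive cells were taken out. In the WT non-pulsed group the dendritic cells carried no peptide. In the PKCθ KO N4 group they were pulsed with N4, and so they were in the WT N4 group, whose 2 arrays are set beside these results. The remaining 2 arrays, of p50 cRel double knockout cells with N4, entered only the estimate of the spread. Genotype and peptide both differed between the groups compared, no PKCθ KO cells without peptide were part of the series, and their effects cannot be told apart by this comparison alone. The sources used here do not give the antigen receptor of the T cells, the knockout allele, the age or sex of the mice, or whether a group's arrays stem from separate animals or cultures. P-values therefore measure the spread between these arrays, which may be technical.

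PKCθ, encoded by Prkcq, is a kinase that is activated by diacylglycerol below the engaged T cell receptor and passes the signal on to NF-κB, with further branches to AP-1 and NFAT. In naive CD8 T cells, receptor engagement with costimulation starts cytokine and cytotoxic genes, growth and DNA replication, and shuts off the genes of the quiescent state. IL-2, interferon-γ, granzyme B and the IL-2 receptor α chain are among its usual readouts. NFAT, AP-1 and a composite CD28 response element in the proximal promoter are the textbook inputs to Il2.

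The 3 cytokine promoters below are shown because Il2 rose less than Il3 and Ifng in the PKCθ KO cells, though no test compared the genes. The order was the same in WT N4 cells, where Il2, Il3 and Ifng rose by 4.19, 6.03 and 6.26 on the log2 scale. Il3 lay under the intensity filter in WT non-pulsed cells, so the size of its rise is not exact. A link between the motifs of these promoters and the rises was not tested. Each is the 250 bases before the gene's start in RefSeq, build GRCm38.p6, read 5′ to 3′ on the gene's strand: Il2 at chr3:37125955-37126204 (minus strand), Il3 at chr11:54267280-54267529 (minus strand) and Ifng at chr10:118440796-118441045 (plus strand). Capitals mark matches on either strand to the NFAT core GGAAA or to the core AAATTCC of the CD28 response element.
Il2: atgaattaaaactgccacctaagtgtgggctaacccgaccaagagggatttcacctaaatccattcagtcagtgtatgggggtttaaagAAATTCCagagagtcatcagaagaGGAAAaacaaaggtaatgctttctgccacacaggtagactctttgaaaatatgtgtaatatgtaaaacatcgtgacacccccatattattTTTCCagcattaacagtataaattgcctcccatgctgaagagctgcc
Il3: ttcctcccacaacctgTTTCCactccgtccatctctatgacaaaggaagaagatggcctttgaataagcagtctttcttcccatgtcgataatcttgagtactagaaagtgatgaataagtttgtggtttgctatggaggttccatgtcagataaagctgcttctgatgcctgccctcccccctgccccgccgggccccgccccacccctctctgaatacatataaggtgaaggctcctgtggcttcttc
Ifng: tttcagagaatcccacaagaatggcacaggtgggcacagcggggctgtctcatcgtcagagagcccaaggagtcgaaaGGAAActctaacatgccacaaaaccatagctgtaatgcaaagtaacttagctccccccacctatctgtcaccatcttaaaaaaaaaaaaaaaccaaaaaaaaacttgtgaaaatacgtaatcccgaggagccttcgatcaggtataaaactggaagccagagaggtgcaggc
The Il2 window held 2 NFAT cores, whose first bases lay 137 and 47 bases before the start, and 1 CD28 response element core 161 bases before it. The Il3 and Ifng windows each held 1 NFAT core, 234 and 172 bases before the start, and no CD28 response element core. An AP-1 site spelled TGANTCA was matched in none of the 3. Of 32851 windows of this length, 55.6% held the NFAT core, 6.75% the AP-1 letters and 3.43% the CD28 response element core. The matches were not tested as sites.

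Levels are given as log2(signal + 16), on which a signal of 0 reads 4, and differences on the same scale. Array values in a pair are of replicate 1 and then replicate 2. A gene was called changed where limma's adjusted p, by Benjamini-Hochberg over all genes measured, was under 0.05. Pearson's r across genes between the 2 arrays of a group was 0.979 for WT non-pulsed and 0.977 for PKCθ KO N4, and the number of arrays limits the precision. Median signals lay between 33.8 and 70.5 on the 8 arrays, although the trimmed mean was 500 on each. The mice differed by sex-linked transcripts: 3 of 3 Y-linked genes were lower in the PKCθ KO cells, among them Eif2s3y at 6.72 and 5.51 against 11.06 and 10.65. Xist read 12.44 and 12.33 in the PKCθ KO cells, 6.05 in WT non-pulsed replicate 1 and 11.84 in replicate 2, so replicate 2 carried both Xist and Y-linked transcripts. Sex-linked genes were left out of the counts over all genes, but the gene lists kept all measured members, whatever their chromosome.

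The targeted gene itself was read first. Prkcq had 11.90 and 11.51 on the WT non-pulsed arrays and 11.00 and 10.75 on the PKCθ KO N4 arrays, against 11.73 and 11.35 in WT N4. The groups did not overlap, and the difference from WT non-pulsed was -0.83 (SE 0.21, limma adjusted p = 0.0128). The call was lost without WT non-pulsed replicate 1 (limma adjusted p = 0.0839), without PKCθ KO replicate 2 (limma adjusted p = 0.0738) and after median centring (limma adjusted p = 0.442). The sources used here do not say where the Prkcq probe set lies relative to the deleted part of the gene, so this transcript level does not check the knockout.

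Over all autosomal genes, 4919 of 12080 (40.7%) were called, 1994 higher (16.5%) and 2925 lower (24.2%) in PKCθ KO N4 than in WT non-pulsed cells. The shares of 16.5% and 24.2% are the background for the counts of list members below. In size the falls were larger: the median rise among called genes was 0.86 and the median fall -1.33. At least 2-fold changes counted 709 rises and 2025 falls, and at least 8-fold changes 31 rises and 363 falls. All 4919 called genes had groups of arrays that did not overlap, as had 8323 genes (68.9%) in all. Without WT non-pulsed replicate 2, 3637 genes were called, 1473 higher and 2164 lower. With the marker genes of other cell types left out of the count, 1994 genes were higher and 2866 lower.

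The balance of rises and falls moved with the scaling of the arrays. On the deposited scale all autosomal genes had a median of -0.13, which quantile normalization turned to 0.08 and centring each array on its median to 0.27. The corresponding counts were 2480 higher and 2325 lower with quantile normalization, and 2092 higher and 1414 lower with median centring, so that 40.5%, 51.6% and 59.7% of the called genes were higher. Differences near 0 are therefore relative to the scaling.

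**Figure D1:**
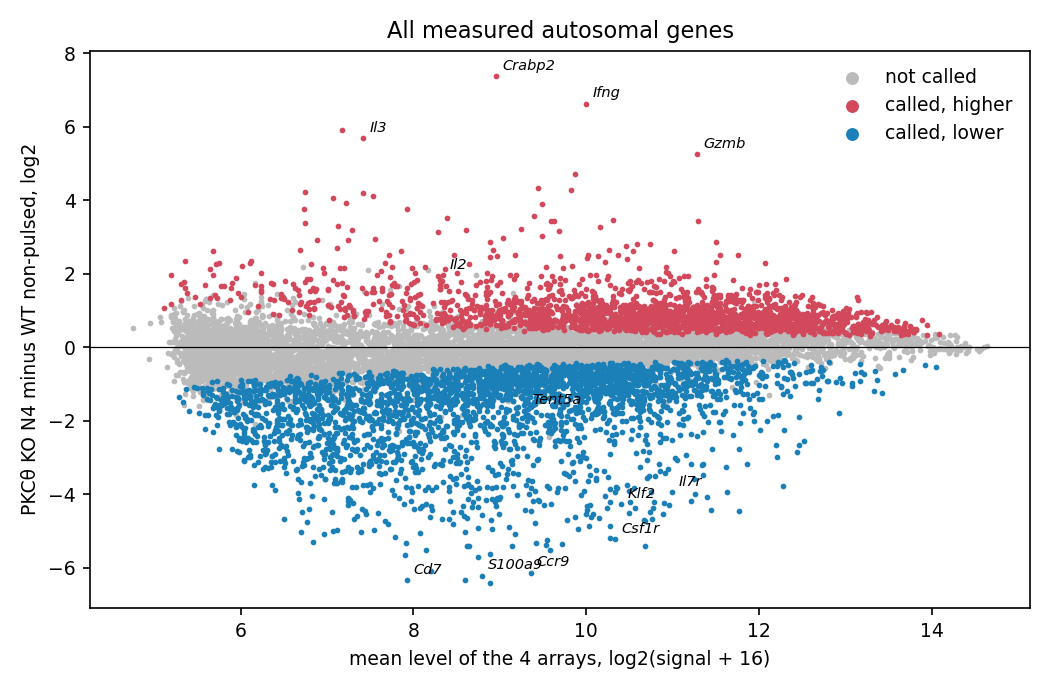
Difference between PKCθ KO N4 and WT non-pulsed cells (y axis, log2) against the mean level of the 4 arrays (x axis, log2(signal + 16)), 1 point per autosomal gene. Of 12080 genes, 1994 called higher (red) reach 7.38 for Crabp2 and 2925 called lower (blue) reach -6.40 for S100a4, and grey points were not called.

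CD8 T cell transcripts were high on every array, while most marker transcripts of other spleen and culture cells were higher on the WT non-pulsed arrays than on the PKCθ KO N4 arrays. Of the 8 CD8 T cell markers, 4 were higher in the PKCθ KO N4 cells and none was lower. Cd8a, the CD8 α chain, rose from 11.15 and 11.62 to 13.27 and 13.21, and Cd8b1, the β chain, from 12.45 and 12.62 to 13.30 and 13.33. All 18 B cell markers measured fell, with a median of -3.75, and so did all 9 neutrophil markers, with a median of -5.35. Of 30 markers of dendritic cells and macrophages, 25 fell and none rose, with a median of -3.09. All 3 CD4 T cell markers measured fell (median -1.75), but Cd4 itself lay below the intensity filter. Gata3, 1 of these 3, had a difference of -1.74, which ranged from -2.48 to -0.99 with 1 array left out. Of 9 erythroid genes, 2 were measured and both fell (median -2.04), while 4 lay below the filter and 3 are not analysed here. Of 4 natural killer cell markers Tyrobp and Fcer1g fell, while Klre1 (0.55, limma adjusted p = 0.269) and Klrd1 did not. Klrd1, a killer cell lectin-like receptor that CD8 T cells also carry, read 12.06 and 12.65 in WT non-pulsed and 12.31 and 12.81 in the PKCθ KO cells, which did not pass the test (0.21, turning to -0.04 with quantile normalization, limma adjusted p = 0.591).

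Summed over each marker list, the B cell signal was 78923 and 54611 in WT non-pulsed against 6050 and 3440 in the PKCθ KO N4 cells. The signal of dendritic cell and macrophage markers was 139002 and 120398 against 21656 and 16546, and that of neutrophil markers 36029 and 37000 against 1408 and 699. The CD4 sums were 3453 and 2972 against 390 and 243, the natural killer cell sums 21793 and 17239 against 5883 and 7854, and the erythroid sums 1145 and 978 against 238 and 165. Natural killer sums join Tyrobp and Fcer1g, which fell, with Klre1 and Klrd1, which did not. The CD8 T cell sum was 35782 and 38301 against 58555 and 58141. On the PKCθ KO N4 arrays, 2 of the 30 dendritic cell and macrophage markers, 1 of the 9 neutrophil markers and 1 of the 2 erythroid markers read 5 or less on both arrays, close to a signal of 0. The highest members still reached 10.25 for the B cell gene Ms4a1 and 12.16 for the protease Ctss of antigen-presenting cells, both named after their values were seen. In these bulk samples, fewer cells of a type and less RNA per cell cannot be told apart, and the part these cells have in the falls described here was not tested.

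**Figure D2:**
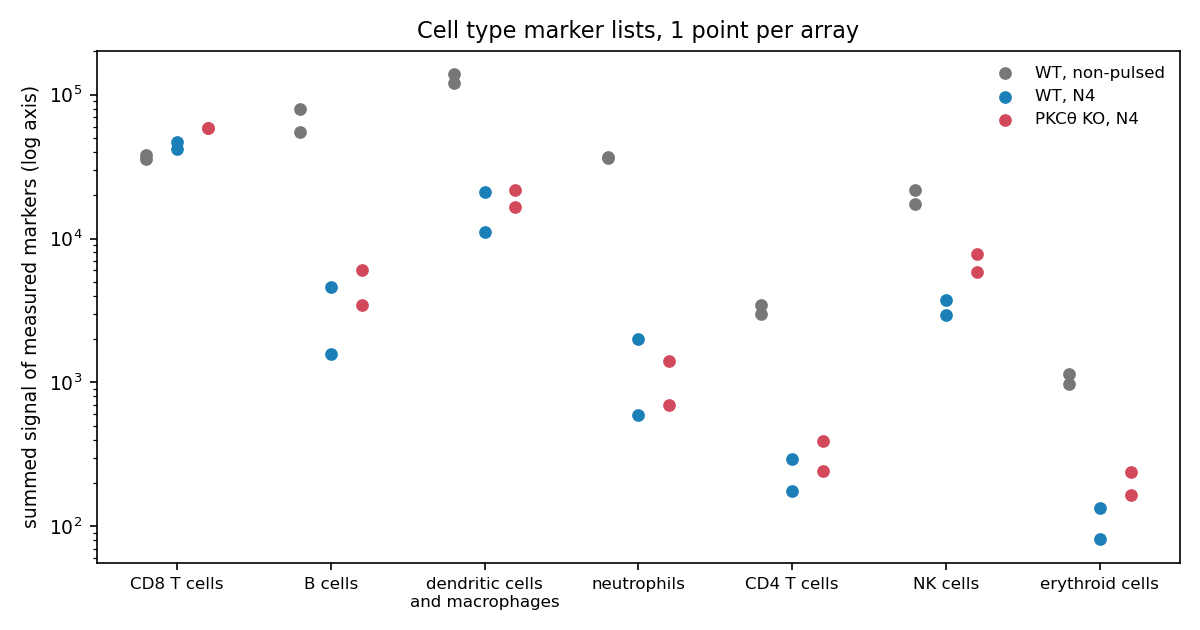
Summed signal of the measured markers of 7 cell types (y axis, log scale) on each array of WT non-pulsed, WT N4 and PKCθ KO N4 cells, 1 point per array. The 2 WT non-pulsed points lie above the other 4 for every list but that of CD8 T cells, where they are the lowest.

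The largest rise was that of Crabp2, a carrier of retinoic acid, which went from 5.60 and 4.95 on the WT non-pulsed arrays to 12.95 and 12.35 on the PKCθ KO arrays, a difference of 7.38 (SE 0.31, limma adjusted p = 9.64e-06). Ifng followed, from 5.58 and 7.79 to 13.81 and 12.82 (difference 6.63, SE 0.64, limma adjusted p = 0.000134). The 2 WT non-pulsed arrays lay far apart for Ifng, and both were well below the PKCθ KO arrays. Il21, a cytokine acting on B and T cells, rose from 4.14 and 4.29 to 9.94 and 10.30, and its other probe set rose by 4.38. Il3, a growth factor of myeloid cells, rose from 4.29 and 4.87 to 10.58 and 9.95. Gzmb, the cytotoxic protease granzyme B, rose from 7.43 and 9.89 to 14.10 and 13.72, a level near the top of the scale on both PKCθ KO arrays. For all these genes the groups were well separated. In Crabp2, Il21, Il3, Smyd1, Acsl6 and Gpr25, 6 of the 12 largest rises, the WT non-pulsed mean lay under the intensity filter of 5.38, which they passed only with the stimulated groups. Their differences depend on the 16 added to each signal, so neither their size nor their order is exact, and no fold is given for them.

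Lag3, an inhibitory receptor for MHC class II, rose from 7.68 and 7.35 to 12.03 and 12.42. Nr4a2, a nuclear receptor induced by antigen, rose from 6.67 and 7.88 to 11.05 and 12.16, with 5 other probe sets between 0.18 and 3.76. Spry1, an inhibitor of the Ras-ERK pathway, rose from 7.65 and 7.73 to 11.94 and 11.99, with the smallest spread of this group (difference 4.28, SE 0.14, limma adjusted p = 6.01e-06). Smyd1, a methyltransferase best known from muscle, rose by 4.22, but its 5 other probe sets gave -0.21 to 2.94. Acsl6, which links fatty acids to coenzyme A, rose by 4.21 (other probe set 0.82), Slc9b2, a sodium-proton exchanger, by 4.1, and Gpr25, a receptor coupled to G proteins, by 4.06.

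Of the 12 largest falls, 3, Chil3, S100a9 and S100a8, stood on the neutrophil marker list. For Cd7, Clec4a2, Sirpb1a and Marco the PKCθ KO mean was at or under 5.38, so the size of their falls also depends on the 16 added. S100a4, a calcium-binding protein, fell from 12.22 and 11.96 to 5.96 and 5.41 (difference -6.40, SE 0.49, limma adjusted p = 5.19e-05). Chil3, a chitinase-like protein, fell from 11.35 and 12.17 to 5.69 and 5.18. S100a9 fell from 11.43 and 12.36 to 6.49 and 4.88, and its partner S100a8 from 13.37 and 13.41 to 8.54 and 7.40. Clec4a2 (-6.08, other probe set -2.18), Sirpb1a (-5.66), Arg1 (-5.63), Marco (-5.52) and Tgfbi (-5.52), a lectin, a signal-regulatory protein, arginase 1, a scavenger receptor and a matrix protein, fell beside them. The dendritic cell and macrophage sum moved with these genes, and its part in the falls was not tested.

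Cd7, a surface protein of T and natural killer cells, fell from 11.30 and 10.90 to 4.64 and 4.88 (difference -6.34, SE 0.28, limma adjusted p = 9.64e-06). Ccr9, the receptor for the gut chemokine CCL25, fell from 11.97 and 12.88 to 6.28 and 6.29, and its 4 other probe sets fell by between 5.68 and 1.12 on the log2 scale. Ifit1bl1, of the interferon-induced IFIT family, fell from 11.56 and 11.65 to 5.68 and 6.10. On both PKCθ KO arrays these 3 genes lay below every WT non-pulsed value by more than 4 log2 units.

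**Figure D3:**
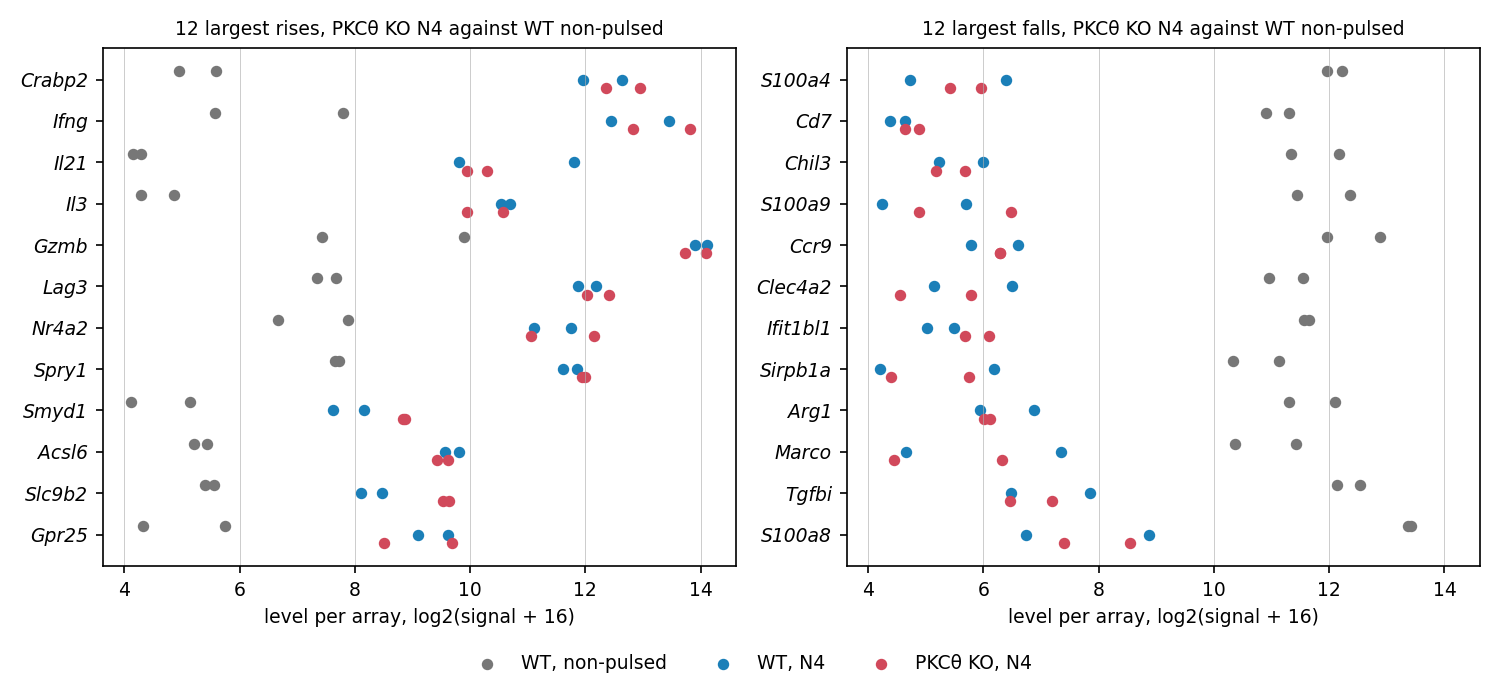
Level on each array (x axis, log2(signal + 16)) of the 12 largest rises and the 12 largest falls between PKCθ KO N4 (red) and WT non-pulsed cells (grey), with WT N4 (blue) beside them, 1 point per array. Red and grey points are apart for every gene, as for Gzmb at 14.10 and 13.72 against 7.43 and 9.89.

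Cytokine genes split into a rising and a falling set. Of 25 cytokine and chemokine genes, 20 were measured, 3 lay below the intensity filter and 2 are not analysed here. Of the 20, 8 rose, 7 fell and 5 did not pass the test, with a median of 0.80 against -0.13 for all autosomal genes. With 1 array left out the median of the list ranged from 0.12 to 1.57. Il2, the T cell growth factor, read 7.12 and 7.60 in WT non-pulsed and 9.75 and 8.90 in PKCθ KO N4 cells. The 4 arrays did not overlap, and the rise was 1.97 (SE 0.30, limma adjusted p = 0.00117) or 3.9-fold, the least of the 3 cytokines whose promoters are printed above. Lif, a cytokine of the IL-6 family, rose from 7.51 and 8.22 to 11.74 and 10.89 (difference 3.44, SE 0.30, limma adjusted p = 8.14e-05).

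The falling cytokines were led by Ltb, lymphotoxin β, from 13.52 and 13.39 to 10.26 and 10.30, and by Il10, an inhibitory cytokine, from 9.84 and 10.36 to 7.33 and 7.44. Tnf fell from 11.02 and 11.17 to 9.58 and 9.05, and Ccl5, a chemokine of memory T cells and natural killer cells, from 13.01 and 13.28 to 10.87 and 11.74. Ccl9 (-1.32), Il6 (-1.06) and Csf1 (-1.18), which myeloid or stromal cells also make, completed the set, and all 3 calls were lost under median centring. Il6 and Csf1 were also lost without WT non-pulsed replicate 2, without PKCθ KO replicate 1 and without PKCθ KO replicate 2, with limma adjusted p up to 0.122 and 0.199. With median centring 4 members fell. The sums of B cell, macrophage and neutrophil markers fell with these genes, and their part was not tested.

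Of 20 cytokine receptors, 5 rose, 11 fell and 4 did not pass the test (median -0.84). Il2ra, the high-affinity IL-2 receptor α chain, rose from 8.28 and 8.87 to 12.43 and 11.65 (difference 3.46, SE 0.27, limma adjusted p = 5.61e-05), and Il2rb, the β chain, from 9.30 and 10.39 to 11.58 and 11.72. Il12rb1 and Il12rb2, the chains of the IL-12 receptor, rose by 3.19 and 3.76. Il15ra rose by 1.47, or by 0.94 without WT non-pulsed replicate 1. Il7r, the receptor for the survival cytokine of resting T cells, fell from 12.84 and 13.08 to 9.01 and 9.05 (difference -3.94, SE 0.17, limma adjusted p = 9.64e-06), and Tgfbr2, a TGF-β receptor chain, from 12.86 and 12.79 to 11.06 and 11.05. The 2 other Tgfbr2 probe sets gave -0.77 and 0.18. With median centring 7 receptors fell in place of 11.

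Of 23 cytotoxic granule and death ligand genes, 18 were measured and 5 lay below the filter. Of the 18, 8 rose, 3 fell and 7 did not pass the test, with a median of 0.39. The share of higher members was 44.4% beside 16.5% of all autosomal genes, and that of lower members 16.7%, under the background of 24.2%. Prf1, the pore former perforin, rose from 7.33 and 7.89 to 11.25 and 11.13 (difference 3.58, SE 0.20, limma adjusted p = 1.26e-05), although its other probe set gave 0.46. Fasl, the ligand of the death receptor FAS, rose from 5.56 and 6.60 to 9.17 and 8.91, and Nkg7, a granule membrane protein, from 10.71 and 11.14 to 13.23 and 13.19. Gzmc rose by 1.68, a call lost without WT non-pulsed replicate 1 and without PKCθ KO replicate 2 (limma adjusted p up to 0.111). Gzmk, a granzyme of memory-like cells, fell from 7.59 and 8.05 to 5.57 and 5.11. Ctsw (-0.93) and Lamp1 (-0.68), proteins of lysosomes and granules, also fell, but only Gzmk remained called without WT non-pulsed replicate 1, without PKCθ KO replicate 1 and under median centring.

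Transcription factors of activation and effector fate moved both ways, 9 of 31 measured higher, 6 lower and 16 not past the test (median -0.03, mean 0.17). The share of lower members, 19.4%, was near the 24.2% of all autosomal genes, and that of higher members was 29.0% beside 16.5%. Nr4a3, of the same nuclear receptor family as Nr4a2, rose from 10.33 and 10.69 to 13.03 and 12.98, and Tbx21, the effector regulator T-bet, from 8.61 and 9.27 to 11.90 and 11.27 (difference 2.65, SE 0.27, limma adjusted p = 0.000155). The other Nr4a3 probe sets gave 0.71 and 1.65. Fosl1, an AP-1 subunit, rose by 1.79. Irf4 read 11.93 and 10.96 against 13.18 and 12.03, and its rise of 1.16 was lost without WT non-pulsed replicate 2 and without PKCθ KO replicate 1 (limma adjusted p up to 0.277). Nr4a1 read 11.69 and 11.46 against 11.88 and 12.42 and did not pass the test (limma adjusted p = 0.0593).

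Egr1 and Egr3, immediate early factors, fell from 12.63 and 12.52 to 10.94 and 10.12 and from 12.17 and 12.07 to 10.64 and 9.82. Prdm1, which encodes the effector and plasma cell regulator BLIMP-1, fell from 10.53 and 9.49 to 7.67 and 7.19. Zeb2 (-2.05) and Maf (-2.02), factors that myeloid cells also express, fell too, and the 5 other Maf probe sets ranged from -3.19 to 0.28. Ahr, the aryl hydrocarbon receptor, fell by 0.92, a call lost without WT non-pulsed replicate 2, without PKCθ KO replicate 2 (limma adjusted p up to 0.0752) and with median centring. The marker sums of macrophages and B cells moved with this falling set, and their part was not tested.

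Genes of the naive, quiescent state fell together. Of 28, 26 were measured and 2 are not analysed here, and 19 fell, 1 rose and 6 did not pass the test (median -1.4). Klf2, a factor of quiescence and recirculation in naive T cells, went from 12.71 and 12.36 to 8.15 and 8.38 (difference -4.27, SE 0.22, limma adjusted p = 1.14e-05). Pik3ip1, an inhibitor of PI3 kinase, fell from 10.87 and 11.01 to 6.20 and 6.39, S1pr1, the receptor for lymph node egress, from 10.80 and 11.32 to 6.42 and 7.44, and Rasa3, a Ras GTPase-activating protein, from 11.67 and 11.74 to 9.58 and 9.50. Ccr7, the lymph node homing receptor, read 12.86 and 13.19 against 12.75 and 13.12, overlapping groups that did not pass the test (limma adjusted p = 0.708). Satb1, a chromatin organizer, was the 1 member called higher (0.93), a call lost without WT non-pulsed replicate 1 and without either PKCθ KO array (limma adjusted p up to 0.114).

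Of 18 chemokine receptor and adhesion genes measured, which include Ccr7 and S1pr1 of the naive list, 13 fell, none rose and 5 did not pass the test (median -1.32). Itga4, the integrin α4 chain, fell from 11.35 and 11.41 to 8.80 and 8.05, and S1pr4, a relative of S1pr1, from 11.62 and 11.77 to 9.68 and 9.79. With median centring 8 fell and 1 rose, and without WT non-pulsed replicate 2 likewise 1 rose.

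Interferon-stimulated genes were low in the PKCθ KO N4 cells. Of 33, 29 were measured, 25 fell, 1 rose and 3 did not pass the test, with a median of -2.44. Rtp4, a chaperone of G protein-coupled receptors, fell from 11.98 and 11.60 to 7.15 and 6.89 (difference -4.77, SE 0.22, limma adjusted p = 9.64e-06). Ifit3 fell from 10.36 and 9.79 to 6.27 and 6.28, Mx1, an antiviral GTPase, from 9.18 and 9.29 to 5.17 and 5.69, and Ifih1, the RNA sensor MDA5, from 10.46 and 10.07 to 7.20 and 6.70. Bst2, which tethers virions to the cell, rose from 11.05 and 10.77 to 11.69 and 11.71 (difference 0.79), a call lost without WT non-pulsed replicate 2 (limma adjusted p = 0.0514). Myeloid and B cells express many of these genes, their marker sums fell in the same arrays, and their part was not tested.

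Replication genes rose almost as a body. Of 33 G1/S and DNA replication genes measured, 31 rose, none fell and 2 did not pass the test (median 1.10). Ccne2, cyclin E2, rose from 9.09 and 9.37 to 11.69 and 11.99, Cdc6, a replication licensing factor, from 9.84 and 9.80 to 12.07 and 11.97 (difference 2.20, SE 0.13, limma adjusted p = 1.43e-05), Mcm10 from 9.65 and 9.56 to 11.53 and 11.27, and Rfc4, a clamp loader subunit, from 10.96 and 10.89 to 12.30 and 12.41. Without PKCθ KO replicate 1, 1 member fell. The G2 and mitosis list was mixed: 8 of 24 rose, 1 fell and 15 did not pass the test, with a median of -0.14 as deposited that turned to 0.10 with quantile normalization and 0.27 with median centring. Mad2l1 and Bub1, of the spindle checkpoint, rose by 1.18 and 1.21 and the checkpoint kinase Ttk by 0.93, while Ccnb2, cyclin B2, fell from 10.68 and 9.92 to 8.5 and 7.78. The risen members numbered 4 without PKCθ KO replicate 1 and also 4 without WT non-pulsed replicate 2, and the fallen members 2 without PKCθ KO replicate 1.

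Growth genes rose by smaller amounts. Of 29 Myc and ribosome biogenesis genes, 25 rose, none fell and 4 did not pass the test (median 0.76). Myc itself went from 12.22 and 12.15 to 13.05 and 12.69 (difference 0.69, SE 0.15, limma adjusted p = 0.00614). Nolc1 and Nop58, nucleolar proteins, rose by 1.42 and 1.12, Nop14, of small subunit assembly, by 1.03, and Cad, the enzyme that starts pyrimidine synthesis, by 1.10. Of 25 genes of amino acid transport, serine and one-carbon metabolism, 15 rose, 3 fell and 7 did not pass the test (median 0.96). Psat1, of serine synthesis, rose from 11.40 and 11.25 to 13.03 and 13.09, Slc7a5, a transporter of large neutral amino acids, from 11.30 and 11.14 to 12.62 and 12.83, Mthfd1, of the folate cycle, by 1.29 and Aldh18a1, of proline synthesis, by 1.11. The 3 that fell were the cystine transporter Slc7a11 (-3.21) and the stress response factors Atf5 (-1.73) and Ddit3 (-1.76).

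Of 16 glycolysis genes measured, 10 rose, 1 fell and 5 did not pass the test (median 1.04). Hk2, hexokinase 2, rose from 11.10 and 10.89 to 12.28 and 12.20, Tpi1, triosephosphate isomerase, from 12.54 and 12.35 to 13.63 and 14.01, Pgam1, phosphoglycerate mutase, by 0.93 and the lactate transporter Slc16a1 by 1.18. Pfkfb4, a regulator of phosphofructokinase, fell by 1.4. The cholesterol and fatty acid list moved less, with 6 of 26 higher, 1 lower and 19 not past the test (median 0.24). Its share of higher members, 23.1%, lay near the 16.5% of all autosomal genes, and that of lower members was 3.85% beside 24.2%. Stard4, a sterol carrier, rose by 1.39 and Idi1, of isoprenoid synthesis, by 0.78, while Scd1, a stearoyl-CoA desaturase, fell from 12.63 and 11.92 to 9.39 and 7.51. Acaca, acetyl-CoA carboxylase, rose by 0.70, a call lost without WT non-pulsed replicate 1 and without PKCθ KO replicate 1 (limma adjusted p up to 0.0626). Its risen members numbered 3 without WT non-pulsed replicate 1, 2 without PKCθ KO replicate 1 and 10 without PKCθ KO replicate 2, and its fallen members 4 without PKCθ KO replicate 1.

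**Figure D4:**
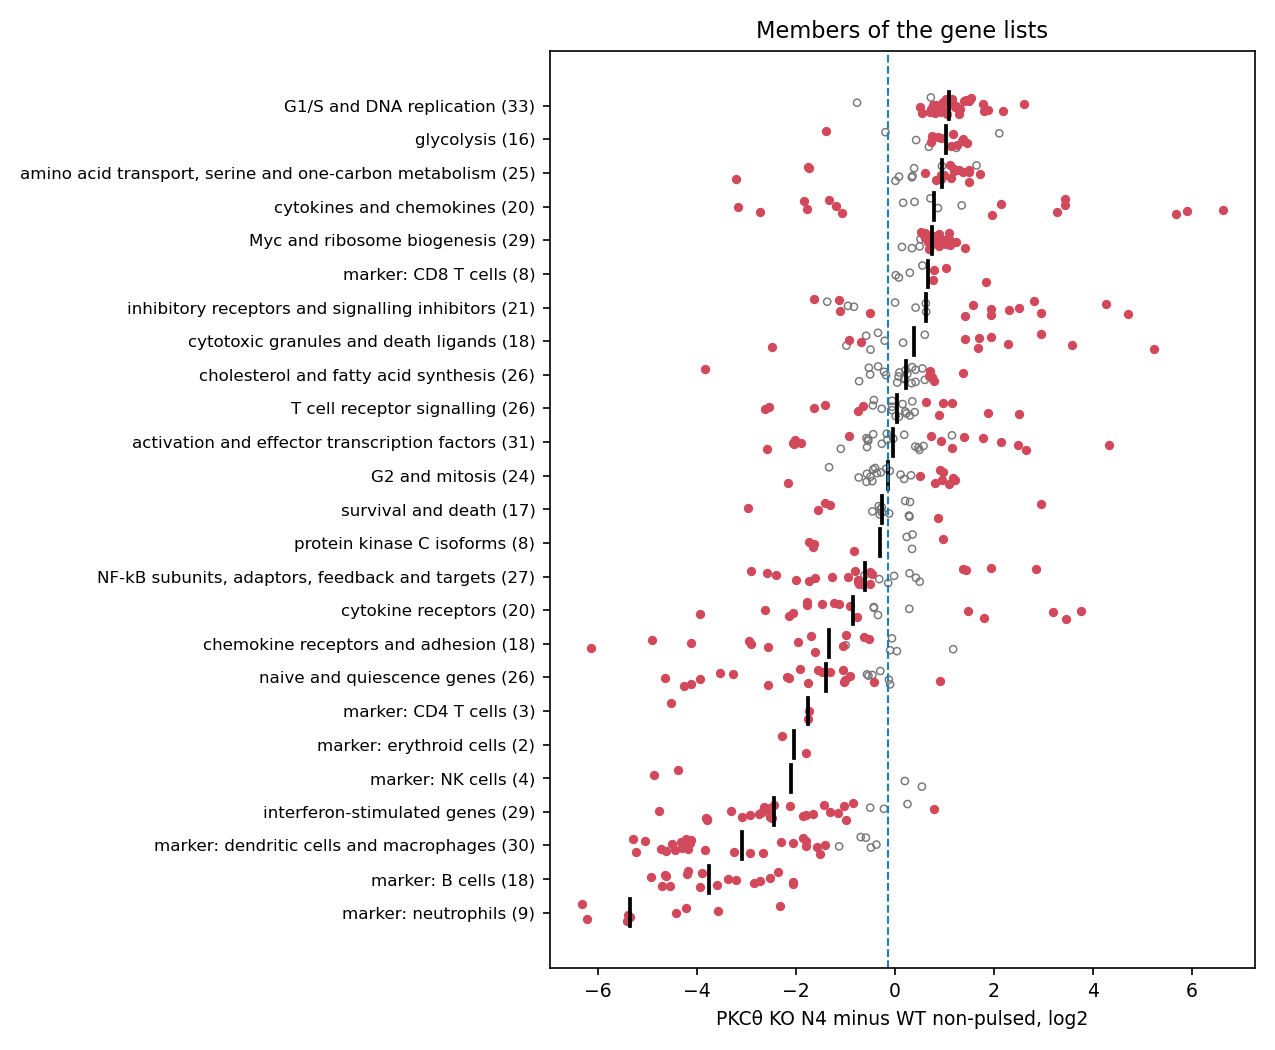
Difference between PKCθ KO N4 and WT non-pulsed cells (x axis, log2) of each measured member of the gene lists, number measured in parentheses, with called members filled, others open, list medians as black bars and the median of all autosomal genes, -0.13, as a dashed line. Medians run from -5.35 for neutrophil markers to 1.10 for G1/S and DNA replication genes.

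NF-κB genes lie on the pathway that PKCθ feeds. Of 30 genes for subunits, adaptors, feedback and targets, 27 were measured and 3 are not analysed here, and 4 rose, 15 fell and 8 did not pass the test (median -0.61). The costimulatory receptors Tnfrsf9 (4-1BB) and Tnfrsf18 (GITR) rose from 9.30 and 10.86 to 12.67 and 13.19 and from 10.07 and 10.94 to 12.20 and 12.72. The other Tnfrsf9 probe sets gave -0.07 to 4.36. Tnfrsf4 (OX40) rose from 8.97 and 9.79 to 10.69 and 10.85 (difference 1.39, SE 0.25, limma adjusted p = 0.00239). Malt1, a protease of NF-κB signalling, rose by 1.44, a call lost without WT non-pulsed replicate 1 and without PKCθ KO replicate 2 (limma adjusted p up to 0.185).

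The list members Nfkbie, Nfkbiz and Tnip1 fell by 1.73, 2.00 and 1.60 on the log2 scale, and the kinase Ikbke from 11.28 and 11.21 to 8.43 and 8.24. Rel, the cRel subunit, read 10.09 and 9.83 against 9.63 and 8.97, which did not pass the test (limma adjusted p = 0.0726). With median centring, 7 members fell in place of 15. Macrophages and B cells also express many members, their marker sums fell in the same arrays, and their part was not tested.

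Among the protein kinase C isoforms, 8 of 9 were measured, 1 rose and 4 fell, Prkcq included. Prkcb, Prkcd and Prkce fell from 12.95 and 12.50 to 11.24 and 10.91, from 11.69 and 11.18 to 9.99 and 9.62 and from 9.48 and 8.99 to 7.46 and 7.54. Prkch, a further isoform that answers to diacylglycerol, rose from 10.72 and 11.41 to 12.05 and 12.05 (difference 0.99), or by 0.64 without WT non-pulsed replicate 1. With quantile normalization 2 isoforms rose. B cell and myeloid marker sums fell on the same arrays, and their part in the falls of Prkcb and Prkcd was not tested.

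Of 26 T cell receptor signalling genes measured, 6 rose, 6 fell and 14 did not pass the test (median 0.05, mean -0.04). At 23.1% higher and 23.1% lower, beside 16.5% and 24.2% of all autosomal genes, the counts lay near the background. Zap70, the kinase at the receptor, rose from 9.72 and 10.53 to 11.91 and 12.13, with other probe sets at -0.28 and 1.10. Ppp3ca, a calcineurin subunit, fell from 11.29 and 10.78 to 8.79 and 8.21, Fyb, an adaptor of adhesion, from 11.52 and 11.75 to 8.60 and 9.41, Rasgrp1, which activates Ras below diacylglycerol, from 10.94 and 11.43 to 9.61 and 9.52, and Dgka, which removes diacylglycerol, from 12.76 and 12.64 to 11.18 and 11.40. Plcg1 (-0.73) and Nfatc2 (-0.65) were called lower, but both calls were lost without WT non-pulsed replicate 2, without PKCθ KO replicate 2 (limma adjusted p up to 0.0818 and 0.144) and under median centring, and that of Nfatc2 also without WT non-pulsed replicate 1.

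Inhibitory receptors and signalling inhibitors rose in 10 of 21 measured members and fell in 4 (median 0.64). Cd6, a coreceptor, rose from 9.89 and 10.52 to 12.23 and 12.08. Pdcd1, which encodes PD-1, read 9.08 and 8.71 against 10.82 and 9.81, a rise of 1.42 that was lost without WT non-pulsed replicate 2 and without PKCθ KO replicate 1 (limma adjusted p up to 0.139). Dusp10 and Dusp6, phosphatases of MAP kinases, fell by 1.62 and 1.13 on the log2 scale. Btla (-0.49) and Entpd1 (-1.11) were called lower, calls lost without WT non-pulsed replicate 1 and without PKCθ KO replicate 1 (limma adjusted p up to 0.244 and 0.0649); Btla was also lost without PKCθ KO replicate 2 and Entpd1 without WT non-pulsed replicate 2. With median centring 1 member fell.

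Of 17 survival and death genes measured, 2 rose, 4 fell and 11 did not pass the test (median -0.26, turning to 0.15 with median centring). These counts, 11.8% higher and 23.5% lower, lay near the 16.5% and 24.2% of all autosomal genes. Bmf and Bbc3, which encode killer proteins of the BH3-only class, fell from 9.20 and 9.43 to 5.83 and 6.85 and from 8.61 and 8.65 to 6.78 and 7.37. Fas fell by 1.30. Bcl2, the survival protein, rose by 0.88, a call lost without either WT non-pulsed array and without PKCθ KO replicate 2 (limma adjusted p up to 0.174), which left Fasl as the 1 risen member in those fits. Cd69, an early activation marker, read 10.62 and 11.16 against 11.14 and 11.04 and did not pass the test (limma adjusted p = 0.464).

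WT N4 cells were then set beside the PKCθ KO N4 cells, each against the same 2 WT non-pulsed arrays, so that the 2 comparisons share their controls. In WT cells 4935 of 12080 autosomal genes (40.9%) were called, 2082 higher (17.2%) and 2853 lower (23.6%). The direct test of PKCθ KO N4 against WT N4 with limma called 0 of 12080 autosomal genes (0.0%). An unadjusted p under 0.05 was found for 351, a smaller share than the 0.05 that this threshold passes where nothing differs. Same-numbered arrays of these 2 groups deviated together (r 0.58), which the model left out. The low share therefore does not show that the groups are alike, and its cause was not tested. Eif2s3y, Uty and Kdm5d on the Y chromosome did pass the adjusted direct test, so the sex of the mice and the genotype cannot be told apart between these groups. Ifng differed from WT non-pulsed by 6.63 in PKCθ KO and 6.26 in WT cells, and the direct difference was 0.37 (95% interval -1.09 to 1.84). For Gzmb the values were 5.25 and 5.35 (interval of the direct difference -1.51 to 1.31), for Il3 5.68 and 6.03 (-1.0 to 0.30), for Lag3 4.71 and 4.52 (-0.24 to 0.64), for Il2ra 3.46 and 3.81 (-0.97 to 0.27) and for Myc 0.69 and 0.71 (-0.37 to 0.31). Of these, the intervals of Ifng and Gzmb were the widest and that of Myc the narrowest.

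Next come the 5 genes with the lowest p in each direction of the direct test. They were picked by that p, so their intervals exclude 0 by selection, and none passed the adjusted test in this fit. Il2 read 11.34 and 11.75 on the WT N4 arrays, above both PKCθ KO arrays at 9.75 and 8.90, which in turn lay above both WT non-pulsed arrays. Its difference from WT non-pulsed was 1.97 in PKCθ KO and 4.19 in WT cells, and the direct difference was -2.22 (95% interval -2.91 to -1.53, limma adjusted p = 0.135). Tent5a, a cytoplasmic poly(A) polymerase, had the lowest p: it read 9.91 and 10.41 in WT non-pulsed, 10.08 and 10.13 in WT N4 and 8.46 and 8.45 in PKCθ KO N4 cells. Its direct difference was -1.65 (95% interval -2.10 to -1.20, limma adjusted p = 0.0635). Pdgfb, a growth factor chain, Enc1, an actin-binding protein, and Cd36, a fatty acid transporter, followed on the lower side with direct differences of -1.55, -1.24 and -1.20 (limma adjusted p 0.252, 0.252 and 0.276). Enc1 did not pass the test against WT non-pulsed (-0.36, turning to 0.05 with median centring), and the fall of Pdgfb was lost without WT non-pulsed replicate 2 (limma adjusted p = 0.0625) and under both other scalings.

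On the higher side, Cd8b1, Efcab7, Slc9b2, Rab4a and Atp8b4 had the lowest p, all with a limma adjusted p of 0.252. Cd8b1 differed from WT non-pulsed by 0.78 in PKCθ KO and 0.01 in WT cells. Efcab7, an EF-hand protein, read 8.95 and 8.83 against 7.29 and 7.66 in WT N4, and Rab4a, a GTPase of endosome recycling, 8.61 and 8.85 against 7.02 and 7.46. Slc9b2 rose by 4.1 in PKCθ KO and 2.81 in WT cells. Atp8b4, a lipid flippase, rose by 0.54 in PKCθ KO cells, a call lost without either WT non-pulsed array and without PKCθ KO replicate 1 (limma adjusted p up to 0.0945).

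Of the genes named for their role, Klf2 differed from WT non-pulsed by -4.27 in PKCθ KO and by -5.55 in WT cells, with a direct difference of 1.28 (95% interval 0.79 to 1.78, limma adjusted p = 0.252). Prf1 rose by 3.58 and 2.54 (direct difference 1.04, interval 0.59 to 1.48, limma adjusted p = 0.385), Tnfrsf4 by 1.39 and 2.55 (direct difference -1.16, interval -1.73 to -0.60, limma adjusted p = 0.537) and Il7r fell by 3.94 and 3.29 on the log2 scale. Gene lists had medians of 0.80 in PKCθ KO and 0.69 in WT cells for cytokines, 1.10 and 1.23 for G1/S genes, -1.4 and -0.94 for naive genes, -2.44 and -2.52 for interferon-stimulated genes and -0.61 and -0.52 for NF-κB genes. Medians differed in sign for G2 and mitosis genes (-0.14 and 0.50), PKC isoforms (-0.29 and 0.03) and transcription factors (-0.03 and 0.23). For inhibitory receptors and signalling inhibitors they were 0.64 and 1.14. In the same order, the median direct differences of the members were -0.34, -0.15, 0.04 and -0.11. With 1 array left out, the PKCθ KO medians ranged from -0.47 to 0.24, -0.43 to -0.30, -0.22 to 0.29 and 0.51 to 1.21. Both comparisons share the WT non-pulsed arrays, and the WT medians were not recomputed with 1 array left out. Whether such a range includes the WT median therefore cannot decide if a list differed between the N4 groups. No autosomal member of any list was called in the direct test.

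**Figure D5:**
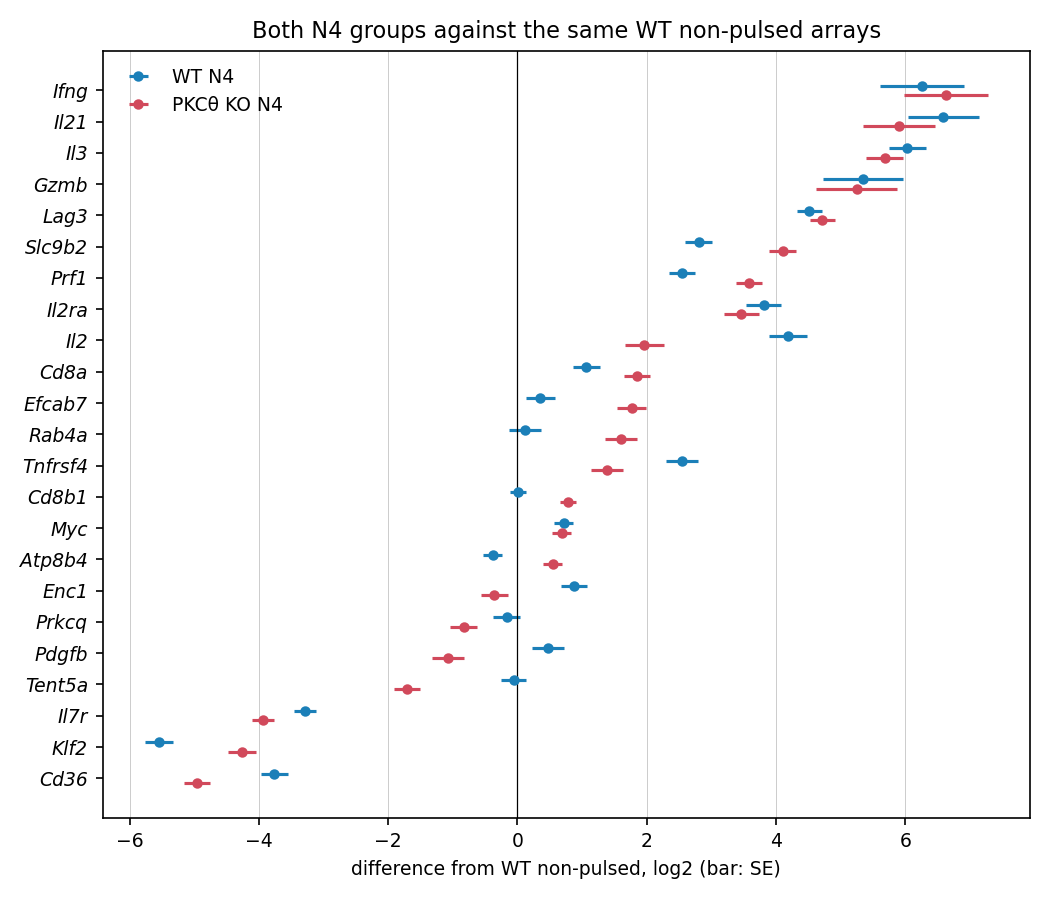
Difference from the same 2 WT non-pulsed arrays (x axis, log2, bars are SE) in PKCθ KO N4 (red) and WT N4 cells (blue) for 23 genes. Il2 lies at 1.97 and 4.19 and Tent5a at -1.71 and -0.06, while Ifng, Il3, Gzmb, Lag3 and Myc lie within overlapping bars.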

How the data were processed

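The deposited values were intensity values, 1 linear signal per probe set, for which the submitters' processing notes name GCOS 1.4 and MAS5. In the values themselves, each array had a 2% trimmed mean of 500 and arrays were not quantile normalized. Genes were named from the platform annotation: of 45101 probe sets 64 were controls, 34945 had 1 symbol, 932 several and 9160 none, and symbols were updated through RefSeq GRCm38.p6 for 34741. Values were transformed to log2(signal + 16). Probe sets with a mean below the 40th percentile (5.38) were left out, which kept 27022, and the brightest probe set of each gene was used, which gave 12520 genes, 12080 autosomal, 381 on sex chromosomes and 59 without a chromosome. Adding 16 understates changes of dim genes. All 8 arrays entered 1 model with 4 groups in limma 3.58.1 (R 4.3.3; lmFit, then eBayes with trend, on 4 residual degrees of freedom), with Benjamini-Hochberg adjustment over all 12520 genes. The script was tested on simulated data.

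Samples were grouped by title, and an array titled without a number counts as replicate 1 of its group. Named genes were Prkcq, the 12 largest rises and 12 largest falls among called genes, the 5 lowest p in each direction against WT N4, up to 4 members of each of 26 lists with the lowest p and called members against a list's larger direction, and a short list of activation genes. The members and lists were chosen with earlier results of these data known, and lists are described by counts and medians only. Alternatives were quantile normalization, median centring, pseudocounts of 1 and 64, no filter, a filter at the 60th percentile, every probe set by itself, no variance trend, only the arrays compared, a replicate block, the marker genes left out, and each array left out.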

Additional observations from a re-analysis of the deposited data

How the results depend on the processing

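With 2 arrays a group, changes could escape the test, and not only small changes of dim genes. In the direct test against WT N4, Il2 differed by -2.22 and Klf2 by 1.28, and neither was called. Of 158 named calls between PKCθ KO N4 and WT non-pulsed cells, 134 were kept under every alternative that gave a value, and 24 were lost or turned under at least 1. Among all values of named genes under an alternative, 2419 of 2541 kept their direction and their side of the threshold. The lower genes numbered 1414 with median centring and 4525 with every autosomal probe set tested by itself, where more features were tested; the cause of the former was not tested. The labels do not show that replicate numbers pair the arrays, and same-numbered arrays deviated together with r 0.31 (PKCθ KO N4 and WT non-pulsed) and 0.58 (PKCθ KO N4 and WT N4). With the replicate number as a block, 6209 genes were called against WT non-pulsed and 1 against WT N4, Tent5a (limma adjusted p = 0.0253). Leaving out 1 array, which assumes that the lone array varies like the other groups, gave 3637 to 4006 calls and 0 against WT N4.

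Medians that turned sign were those of all autosomal genes (0.08 with quantile normalization, 0.27 with median centring), G2 and mitosis (0.1 and 0.27), and, with median centring, transcription factors (0.38), PKC isoforms (0.11) and survival genes (0.15). The median of natural killer markers turned to 0.21 with no filter on low values. Klrd1 turned to -0.04 with quantile normalization, Enc1 to 0.05 and Ccr7 to 0.32 with median centring. With 1 array left out, values against WT non-pulsed ranged from -0.09 to 0.50 for Klrd1, -0.07 to 0.47 for Cd69, -0.28 to 0.09 for Ccr7, -0.47 to 0.24 for the G2 median and -0.22 to 0.29 for the transcription factor median. Against WT N4 they ranged from -0.13 to 0.87 for Ifng, -0.29 to 0.09 for Gzmb, -0.74 to 0.04 for Il2ra, -0.28 to 0.36 for Tbx21, -0.65 to 0.18 for Gzmc, -0.21 to 0.15 for Myc, -0.09 to 0.28 for Ccr7, -0.95 to 0.20 for Irf4, -0.29 to 0.84 for Pdcd1 and -0.23 to 0.31 for Nr4a1.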
